A study of Mus musculus with 4 samples.

Results

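The canonical histone genes of the mouse were examined for peaks of the enzyme subunits KMT9alpha and KMT9beta and of H4K12me1, monomethylation of lysine 12 on histone H4. Members were chosen by name alone: protein-coding genes of GENCODE M21 whose symbol begins with Hist1h, Hist2h, Hist3h or Hist4h. The rule found 67 genes among 21853 protein-coding genes. They comprise 6 genes for the linker histone H1, 18 for H2A, 18 for H2B, 12 for H3 and 13 for H4. All but 1 of the 67 had a peak of at least 1 library within 1 kb of an annotated start, whereas 29.6% of all protein-coding genes had none. H4K12me1 lay at 5 of the 13 H4 genes (38.5%) and at 36 of the 48 genes for H2A, H2B and H3 (75%). Its share over all protein-coding genes was 44.9%. With the 3 lists held to equal length by score it lay at 5 and 21, against 28.9% of all genes, so the contrast depends on the list length.

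The peaks come from chromatin immunoprecipitation and sequencing (ChIP-seq) of organoids from mouse colorectal tumours, named AOM/DSS in the labels for the carcinogen azoxymethane and the colitis-inducing dextran sulfate sodium. The groups used are KMT9alpha, KMT9beta and H4K12me1, with 1 library each. All came from clone 3 at passage 14, with the genotype given as NA, in medium with N2, B27 and murine EGF. Their shared treatment text names both 1 µM tamoxifen and vehicle without assigning either to a library, so no treatment was compared, and all values describe 1 clone. The input library is not analysed here.

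The lists held 26146, 90349 and 60289 peaks on the assembled chromosomes for KMT9alpha, KMT9beta and H4K12me1. Read depth is unknown, so a missing peak is not evidence of absence, and lists of such unequal length cannot be compared for sensitivity. Without a replicate no test across samples could be made. Shares are given with exact Clopper-Pearson 95% intervals, which cover counting over genes in 1 library and are too narrow where neighbouring genes share a peak. Of 8 markers of intestinal epithelium, 7 had KMT9alpha and KMT9beta promoter peaks (Krt20 had none), whereas of 6 markers of immune, endothelial and stromal cells 1 had (Pecam1).

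Canonical histone genes supply the proteins that wrap newly copied DNA, and they are transcribed mainly in S phase. H2A, H2B, H3 and H4 form the nucleosome core, and H1 binds the linker DNA between nucleosomes. Their messenger RNAs have no poly(A) tail and end in a stem-loop that is held by the stem-loop binding protein, while the coactivator NPAT gathers at the gene clusters. KMT9 is a methyltransferase made of a catalytic subunit, KMT9alpha, encoded by N6amt1, and a partner, KMT9beta, encoded by Trmt112. It is known to place H4K12me1.

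The stem-loop served as a check of the label, because the rule did not use sequence. The search asked for 16 bases of the known form, a stem that opens with paired guanines and pyrimidines and closes with purines and paired cytosines around a loop rich in thymine. These letters were found within 150 bases after the stop codon of 65 of the 67 genes (97%). Hist1h2an and Hist2h2be had none there. Among 21786 other protein-coding genes 4 had one (0.0184%), namely Btbd10, H2afx, H2bfm and Ppm1b, and none of the 10 other coding genes lying inside the clusters did. The stem-loop began 22 to 59 bases after the stop codon, with a median of 31.

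The letters of the stem divided the genes by type. There were 8 forms, 4 of them only at the 13 H4 genes and 4 only at the 52 genes of the other types. The commonest form, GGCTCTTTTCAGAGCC, lay at 41 genes of types H1, H2A, H2B and H3. The next, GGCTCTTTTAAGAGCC, lay at 9 genes of the same types. At H4 genes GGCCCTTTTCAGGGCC lay at 8 genes and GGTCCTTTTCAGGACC at Hist1h4j and Hist1h4b. An example of each of these 4 forms follows, to show the letters that part H4 from the rest, read from the RefSeq genome sequence GRCm38.p6 (the assembly behind mm10) in the direction of transcription, with the stem-loop in capitals.
Hist1h2bq, chr13:21809741-21809766, - strand: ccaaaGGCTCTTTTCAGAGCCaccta
Hist1h2bl, chr13:21715713-21715738, - strand: tcaaaGGCTCTTTTAAGAGCCaccca
Hist1h4k, chr13:21750145-21750170, - strand: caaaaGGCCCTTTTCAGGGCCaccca
Hist1h4j, chr13:21735432-21735457, + strand: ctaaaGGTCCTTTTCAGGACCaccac

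Promoters were compared for letters known from histone promoters: TATAAA (the core of the TATA box), CCAAT (bound by NF-Y) and ATTTGCAT (an octamer bound by Pou2f1). Both strands of the RefSeq promoter, 250 bases before to 50 after the start, were searched in 62 of the 67 genes. Hist1h3f, Hist1h2bc, Hist1h3a, Hist2h2be and Hist2h4 were not matched. CCAAT was found in 53 of 62 promoters (85.5%), against 39.2% of 17492 protein-coding genes. It was present at all 6 H1, 18 H2A, 16 H2B and 10 H3 promoters searched but at 3 of 12 H4 promoters (Hist1h4d, Hist1h4c and Hist1h4a). TATAAA was found in 35 (56.5%), against 13.3%, and ATTTGCAT in 13 (21%), against 1.72%. All 13 promoters with the octamer belonged to H2A (7) or H2B (6) genes. Genes that stand back to back can hold the same site, as Hist1h2ae and Hist1h2bg do, so distinct octamers were fewer. Matches of different motifs could overlap, and a match describes letters only.

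The following promoters show these differences, with every match on either strand in capitals. Hist1h1e holds CCAAT and TATAAA, Hist2h3c2 holds CCAAT alone, Hist1h4j holds TATAAA alone, and Hist1h2ba, an H2B gene of the testis, holds all 3. Sequences and positions are those of RefSeq on GRCm38.p6.
Hist1h1e, chr13:23622509-23622808, - strand: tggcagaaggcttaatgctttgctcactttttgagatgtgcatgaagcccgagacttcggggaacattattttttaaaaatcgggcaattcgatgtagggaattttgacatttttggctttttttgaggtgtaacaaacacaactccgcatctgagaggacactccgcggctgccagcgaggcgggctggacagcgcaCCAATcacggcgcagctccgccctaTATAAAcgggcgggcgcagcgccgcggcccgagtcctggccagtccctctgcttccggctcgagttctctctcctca
Hist2h3c2, chr3:96239078-96239377, - strand: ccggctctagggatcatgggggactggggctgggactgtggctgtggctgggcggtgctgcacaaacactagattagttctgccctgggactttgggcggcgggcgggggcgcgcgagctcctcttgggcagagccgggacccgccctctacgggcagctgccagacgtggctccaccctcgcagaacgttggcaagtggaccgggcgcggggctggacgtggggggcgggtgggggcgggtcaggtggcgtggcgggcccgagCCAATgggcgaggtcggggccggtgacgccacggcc
Hist1h4j, chr13:21734784-21735083, + strand: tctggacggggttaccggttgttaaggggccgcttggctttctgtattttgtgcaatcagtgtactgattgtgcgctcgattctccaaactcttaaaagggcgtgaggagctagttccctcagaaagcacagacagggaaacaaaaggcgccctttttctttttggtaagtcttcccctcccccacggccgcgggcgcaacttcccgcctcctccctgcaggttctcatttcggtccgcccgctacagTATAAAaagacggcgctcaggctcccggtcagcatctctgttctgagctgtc
Hist1h2ba, chr13:23934107-23934406, - strand: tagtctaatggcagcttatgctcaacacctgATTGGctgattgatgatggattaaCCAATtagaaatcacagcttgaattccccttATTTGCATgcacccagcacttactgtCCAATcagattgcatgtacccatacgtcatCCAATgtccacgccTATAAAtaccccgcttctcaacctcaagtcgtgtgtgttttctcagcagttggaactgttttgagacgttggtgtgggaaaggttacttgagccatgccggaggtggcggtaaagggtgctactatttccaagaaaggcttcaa

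H2A and H2B genes often stand back to back. Of 13 divergent pairs with starts within 1 kb, 12 joined an H2A to an H2B gene and 1 joined H2B to H3 (Hist1h2bh and Hist1h3f). The starts lay 176 to 660 bp apart, with a median of 268 bp. The whole stretch between the starts of 2 pairs is given below to show how closely the matches are packed. The first pair carried all 3 libraries within 1 kb of its starts. Its H4K12me1 peak, at chr3:96219781-96220329, covers neither start and lies outside the printed stretch. That stretch holds 1 TATAAA, 3 CCAAT and 1 ATTTGCAT. The second carried all 3 as well and holds 1, 2 and 1.
Hist2h2ac and Hist2h2be, chr3:96220881-96221118, + strand: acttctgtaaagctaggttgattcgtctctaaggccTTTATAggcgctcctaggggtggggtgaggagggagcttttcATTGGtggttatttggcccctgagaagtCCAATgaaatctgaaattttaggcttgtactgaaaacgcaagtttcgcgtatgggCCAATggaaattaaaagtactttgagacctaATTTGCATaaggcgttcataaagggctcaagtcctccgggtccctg
Hist1h2ae and Hist1h2bg, chr13:23571221-23571395, + strand: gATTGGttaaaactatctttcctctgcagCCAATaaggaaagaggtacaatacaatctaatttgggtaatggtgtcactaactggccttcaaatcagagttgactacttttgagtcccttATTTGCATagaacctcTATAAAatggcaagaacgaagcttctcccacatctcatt

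KMT9alpha was found at the promoters of 60 of the 67 histone genes (89.6%, 79.7 to 95.7), against 54.2% of all protein-coding genes. KMT9beta was found at 58 (86.6%, 76.0 to 93.7), against 65.1%. H4K12me1 was found at 45 (67.2%, 54.6 to 78.2), against 44.9%. All 3 met at 39 genes (58.2%, 45.5 to 70.2), against 35.5%, and 1 gene, Hist1h1d, had none, against 29.6% of protein-coding genes. The promoter window reaches 1 kb to each side of every start annotated for a protein-coding transcript, and 1 shared base counts as overlap.

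These shares have to be read beside 2 properties of the promoters. The first is CpG content. The median observed to expected CpG ratio was 0.757 in the histone promoters and 0.474 in all protein-coding ones, and 43 of the 67 fell in the highest of 5 equal classes of all genes. In that class KMT9alpha was at 43 of 43 histone genes and 92.2% of 4328 other genes, KMT9beta at 88.4% and 96.3%, and H4K12me1 at 74.4% and 72.8%. In the next class, with 18 histone genes, KMT9alpha was at 77.8% against 84.7%, KMT9beta at 88.9% against 91.1%, and H4K12me1 at 50% against 62.5%. In the middle class, with 5 histone genes, the shares were 60% against 63.8%, 80% against 76.8% and 80% against 48.8%. In these 3 classes the background lay within the interval of the histone genes, except for KMT9beta in the highest class, where 88.4% (74.9 to 96.1) was below 96.3%. The one histone gene outside them, Hist1h1d, was in the lowest class.

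The second property is duplication. A median of 19.3% of the 50-base stretches in a histone promoter window also occurred elsewhere in the genome, and in 10 genes more than 50% did. For Hist1h2bq, Hist1h2ao, Hist1h2ap and Hist1h2br every stretch did. Among the 18 genes with at most 10% of stretches elsewhere KMT9alpha was at 12 (66.7%), KMT9beta at 14 (77.8%), H4K12me1 at 10 (55.6%) and all 3 at 7 (38.9%). Among the other 49 the counts were 48, 44, 35 and 32. The sources used here do not say how the authors placed reads that fit several copies, and the part of duplication in the shares was not tested.

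**Figure D1:**
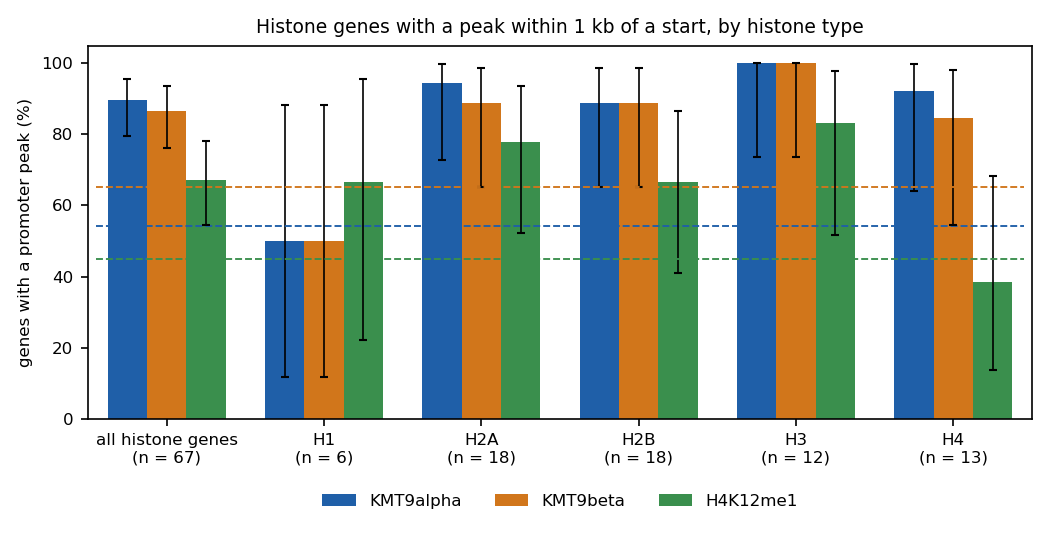
Share of histone genes with a promoter peak of each library (vertical axis, percent of genes), for all 67 genes and by histone type, with exact 95% intervals as error bars. Dashed lines mark the share of all protein-coding genes in the same colour (54.2%, 65.1% and 44.9%). The H4K12me1 bar falls from 83.3% at H3 genes to 38.5% at H4 genes, with wide intervals.

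H3 genes had the fullest set of peaks. KMT9alpha and KMT9beta were at all 12 (73.5 to 100%), and H4K12me1 was at 10 (83.3%, 51.6 to 97.9), all but Hist1h3f and Hist1h3c. The peak score, the authors' own value with a floor of 50, was compared only within a list, taking the highest promoter peak of each gene. H4K12me1 scores of the 10 H3 genes ran from 82.0 (Hist2h3b) to 296 (Hist2h3c2), with a median of 149. Of these, 8 lay above the median of 104 over all protein-coding genes with an H4K12me1 peak, beside 2 of 4 H1, 3 of 14 H2A, 1 of 12 H2B and 2 of 5 H4 genes. Among the 8, the scores of Hist1h3a (174) and Hist1h3b (131) come from peaks shared with Hist1h1a and Hist1h2ab. The midpoints of these peaks lie at -1360 and -940 bp from the H3 starts. Each of these H3 genes had 2 H4K12me1 peaks, and the lower one did not enter.

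Hist2h3c2 and Hist2h2aa2, an H3 and an H2A gene on chromosome 3, had the highest summed rank of scores in their types. They share every highest peak. The KMT9alpha peak at chr3:96238054-96240794 scored 3100, the KMT9beta peak at chr3:96238065-96240679 scored 967, and the H4K12me1 peak at chr3:96238309-96239845 scored 296. The KMT9beta and H4K12me1 values were the highest of any histone gene. Their promoter windows also had 77.6% and 57.2% of stretches elsewhere in the genome, since Hist2h3c1 and Hist2h2aa1 lie beside them as near copies. At those copies the KMT9beta peak scored 305, and H4K12me1 scored 188 at Hist2h3c1 and 69.2 at Hist2h2aa1.

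Both KMT9 subunits met at H4 genes without the mark in 6 cases and with it in 4. KMT9alpha was at 12 of 13 (92.3%, 64.0 to 99.8), all but Hist1h4i, and KMT9beta was at 11 (84.6%, 54.6 to 98.1), all but Hist1h4j and Hist1h4c. H4K12me1 was at 5 (38.5%, 13.9 to 68.4), near the 44.9% of all protein-coding genes. At H2A, H2B and H3 genes joined it was at 36 of 48 (75%, 60.4 to 86.4). The intervals of the 2 shares overlap, and the difference was not tested. With lists of equal length the joined share was 21 of 48 (43.8%, 29.5 to 58.8), through 6 of 18 H2A, 6 of 18 H2B and 9 of 12 H3 genes, whereas H4 stayed at 5 of 13. H2A and H2B (33.3% each) then lay below H4, and H3 (75%) above it.

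The 5 H4 genes with H4K12me1 were Hist4h4 (score 151), Hist1h4i (120), Hist1h4k (96.5), Hist1h4b (95.6) and Hist1h4a (88.8). Hist1h4a (chr13:23760692-23761230) had the highest summed rank of scores among H4 genes, with KMT9alpha at 3233.06 and KMT9beta at 289. The mark of Hist1h4a lay upstream, at chr13:23761788-23762418, and that peak served a second histone gene as well. At 6 H4 genes both KMT9 subunits were present and H4K12me1 was absent from the list. They were Hist1h4m, Hist1h4n, Hist1h4h, Hist1h4f, Hist1h4d and Hist2h4. KMT9alpha scored 2432 at Hist1h4h and 246 at Hist1h4d, so the group spans high and low KMT9alpha peaks. The mark was at 2 of the 6 H4 genes with at most 10% of stretches elsewhere and at 3 of the other 7. In the highest CpG class it was at 1 of 4 H4 genes and at 31 of 39 genes for H2A, H2B and H3. In the next class, which holds 7 of the H4 genes, it was at 3 of 7 (42.9%) and at 4 of 8 (50%).

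Some H4 genes carried a single subunit. Hist1h4j and Hist1h4c carried KMT9alpha alone, with scores of 1009 and 672. Of 14 histone genes with both KMT9 subunits and no H4K12me1, 6 coded for H4. Over all protein-coding genes that pattern made up 15.5%, and KMT9alpha alone made up 2.59%.

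H2A genes had KMT9alpha at 17 of 18 (94.4%), KMT9beta at 16 (88.9%) and H4K12me1 at 14 (77.8%). H2B genes had 16 (88.9%), 16 (88.9%) and 12 (66.7%). All 3 met at 13 H2A and 10 H2B genes. Scores were alike in both types, with KMT9alpha medians of 2042 and 1924 and H4K12me1 medians of 83.2 and 84.3, and most H2A and H2B genes share their peaks. In 12 of the 13 divergent pairs 1 KMT9alpha peak served both genes. For KMT9beta this held in 11 pairs and for H4K12me1 in 8. The windows of paired starts overlap, so a shared peak follows from any peak near the middle.

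The middle of the pairs differed between libraries. The base midway between the starts was covered by KMT9alpha in 10 pairs, by KMT9beta in 8 and by H4K12me1 in 3 (Hist1h2ai with Hist1h2bl, Hist1h2an with Hist1h2bp, and Hist1h2ap with Hist1h2br). Hist1h2bq, the H2B gene with the highest summed rank of scores, lies at chr13:21806612-21810197. It shared a KMT9alpha peak of score 2605 and a KMT9beta peak of score 293 with Hist1h2ao and Hist1h4m, and an H4K12me1 peak of score 156 with Hist1h2ao. All its stretches occur elsewhere, as those of Hist1h2br do, where the same libraries scored 1451, 239 and 92.3.

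Of the 11 H2A and H2B genes outside such a pair, 10 carried H4K12me1 (90.9%, 58.7 to 99.8), against 16 of 25 inside one (64.0%, 42.5 to 82.0). The intervals overlap and the difference was not tested.

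The share of genes with KMT9 peaks was lowest for H1, with wide intervals. KMT9alpha was at 3 of 6 (50%, 11.8 to 88.2), KMT9beta at 3 and H4K12me1 at 4 (66.7%, 22.3 to 95.7). The shares of all protein-coding genes, 54.2%, 65.1% and 44.9%, lie within these intervals. With the first coding base or RefSeq starts, KMT9alpha and KMT9beta were each at 4 of 6 (66.7%). Hist1h1e had all 3, with scores of 1519.97, 329 and 85.3, and Hist1h1c had all 3, with 1138, 207 and 181. Hist1h1b had KMT9alpha alone (340). Hist1h1a had H4K12me1 alone, through a peak of score 174 that Hist1h3a shares. No H1 gene reached the all-gene KMT9alpha median of 2647. H1 promoters had the lowest CpG ratio of the types (median 0.546, against 0.83 for H3) and a median of 0% of stretches elsewhere.

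Hist1h1d depended on where its start is placed. Its annotated start lies 1828 bp before the first coding base, and no peak lay within 1 kb of it. Over the coding exon all 3 libraries had a peak, KMT9alpha at chr13:23554982-23556170 with a score of 906, KMT9beta with 168 and H4K12me1 with 125. Hist1h2be is the opposite case. Its annotated start lies 35168 bp before its first coding base and takes the peaks of Hist1h1e, while its own coding exon carried KMT9alpha with a score of 1373, KMT9beta with 191 and H4K12me1 with 56.6.

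Among the members 3 are known as testis genes. Hist1h1t, the testis H1, lacked KMT9alpha and had the lowest KMT9beta and H4K12me1 scores of all members, 58.9 and 65.0. Hist1h2aa and Hist1h2ba, the divergent testis pair whose promoter is printed above, shared a KMT9beta peak at chr13:23933476-23934982 with a score of 166 and had neither KMT9alpha nor H4K12me1. They were the only members with KMT9beta alone. KMT9alpha was thus at none of the 3.

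**Figure D2:**
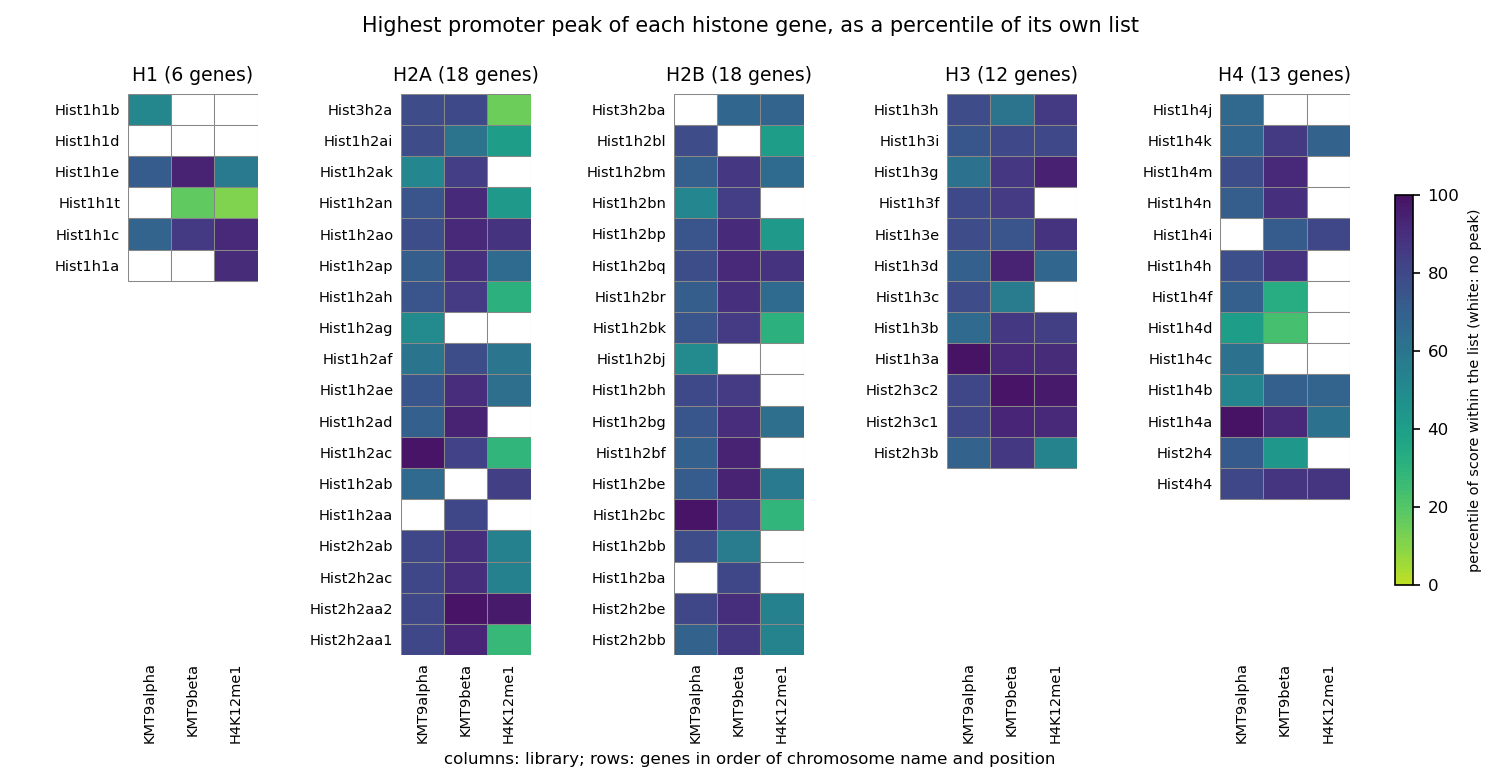
Highest promoter peak of each of the 67 histone genes (rows, by type) in each library (columns), coloured by the percentile of its score within its own list, with white for no peak. H3 rows are filled in all but 2 H4K12me1 cells, whereas 8 of the 13 H4 rows are white for H4K12me1. Paired H2A and H2B genes repeat the same colours because they share peaks.

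KMT9alpha scores of histone genes were mostly moderate for promoters. The highest score of the whole list, 3233.06, lay at a peak shared by Hist1h4a and Hist1h3a. A peak shared by Hist1h2ac and Hist1h2bc scored 3209.48. The median over the 60 genes with a peak was 1906.70, against 2647 over all genes with one, and 21 of the 60 lay above that value. At 12 of the 60 the score was 3100 or more, as at 5405 of the 11854 protein-coding genes with a KMT9alpha peak. That value was reached by 5011 of the 26146 peaks in the list, so a score of 3100 is shared by many peaks. KMT9beta had a median of 209.54, against 206, and 32 of 58 lay above. H4K12me1 had a median of 92.2, against 104, and 16 of 45 lay above. Against the whole KMT9alpha list, whose median is 318, 59 of the 67 genes (88.1%) had a peak at or above that median. Of all protein-coding genes 49% did, and 54.2% had any KMT9alpha promoter peak. Most genes with a promoter peak thus reach the list median, and most members lay below the median of all genes with a promoter peak. Distinct peaks were fewer than genes: 43 KMT9alpha, 43 KMT9beta and 35 H4K12me1 peaks lay in the 67 windows. Of these 21, 21 and 17 served a single histone gene and 5, 4 and 2 served 3.

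**Figure D3:**
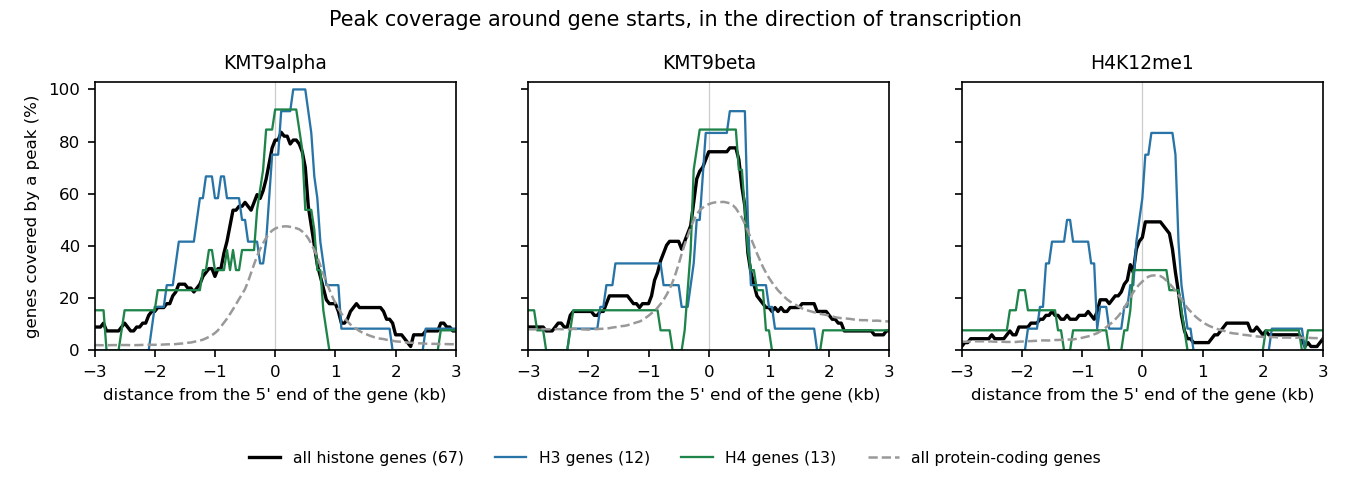
Percent of genes covered by a peak (vertical axis) at each distance from the 5′ end of the gene in the direction of transcription (horizontal axis, kb), per library, for all 67 histone genes, the 12 H3 genes, the 13 H4 genes and all protein-coding genes (dashed). KMT9alpha reaches 83.6% just after the start, and H4K12me1 reaches 83.3% at H3 genes but 30.8% at H4 genes.

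Over all members coverage was highest just behind the start, though not for every type. KMT9alpha covered 83.6% of histone genes at 100 bp after the start, against a highest value of 47.5% for all protein-coding genes. KMT9beta reached 77.6% at 350 bp and H4K12me1 49.3% at 50 bp. The start base itself was covered by KMT9alpha at 54 of 67 genes (80.6%), by KMT9beta at 51 (76.1%) and by H4K12me1 at 29 (43.3%), against 51.3%, 61.0% and 33.4% of all protein-coding genes. H2B genes were covered most at 650 bp upstream, where KMT9alpha lay at 83.3% and KMT9beta at 77.8%, against 72.2% and 66.7% at the start. At H3 genes KMT9alpha covered 58.3% and H4K12me1 41.7% at 1 kb upstream, where other histone genes often lie. Where all 3 libraries had a peak, the highest peaks shared at least 1 base at 31 of 39 genes.

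Histone genes are short and mostly without introns, so the coding sequence can be inspected directly. KMT9alpha overlapped it at 59 of 67 genes, KMT9beta at 54 and H4K12me1 at 36. The same count was not made for other genes, whose coding sequence is mostly spread over introns. H4K12me1 covered the whole coding sequence at 10 of 12 H3 genes and at 4 of 13 H4 genes (Hist1h4k, Hist1h4i, Hist1h4b and Hist4h4), and nothing of it at the other H3 and H4 genes. It overlapped that of 5 of 6 H1 genes, all but Hist1h1b, with 73.3 to 94.7% covered. At H2A genes it overlapped 9 of 18 and at H2B genes 8 of 18. For KMT9alpha the counts were 4 of 6 H1, 17 of 18 H2A, 14 of 18 H2B, 12 of 12 H3 and 12 of 13 H4 genes. H3 stood above H4 for H4K12me1 here too, but the coding sequences of both types lie within the 1 kb promoter window. The promoter and coding counts thus rest largely on the same peaks and are not separate evidence.

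**Figure D4:**
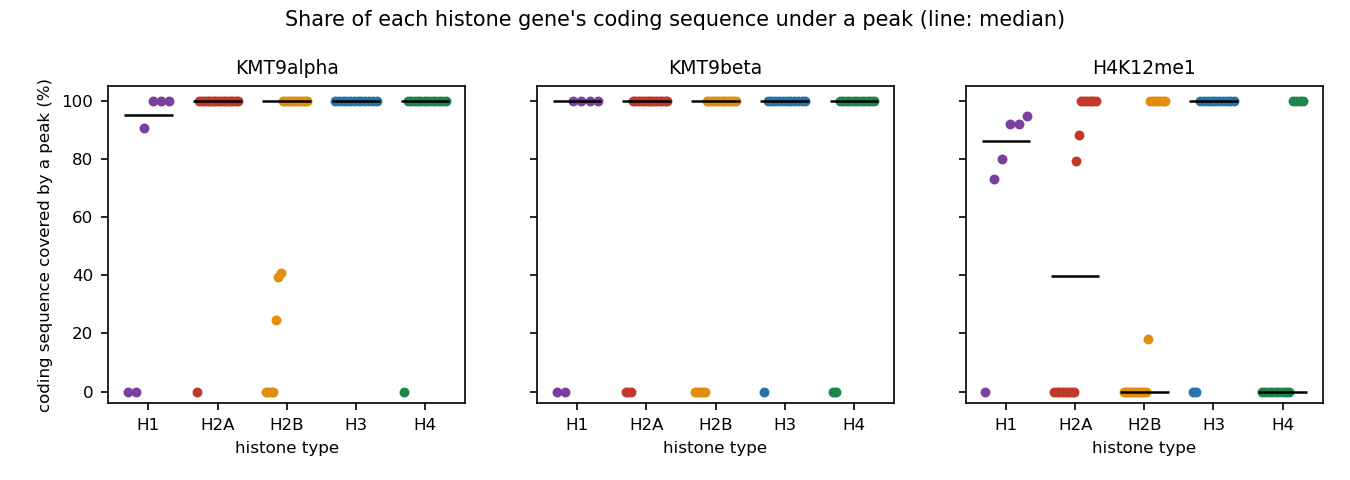
Percent of the coding sequence under a peak (vertical axis) for each histone gene (points) by type, per library, with the median as a line. Most H4 genes sit at 100% for KMT9alpha and KMT9beta and at 0% for H4K12me1, where 4 of the 13 sit at 100%, whereas 10 of the 12 H3 genes sit at 100% for H4K12me1.

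The genes lie in 5 places. The first cluster on chromosome 13 (chr13:21715763-22043676) has 23 members, the second (chr13:23531050-23934851) has 31, and that on chromosome 3 (chr3:96219865-96270132) has 10. Chromosome 11 holds Hist3h2ba and Hist3h2a, and chromosome 6 holds Hist4h4 alone. KMT9alpha was at 22 of 23 genes in the first chromosome 13 cluster (95.7%, 78.1 to 99.9), at 26 of 31 in the second (83.9%, 66.3 to 94.6) and at 10 of 10 on chromosome 3. KMT9beta was at 18, 27 and 10, and H4K12me1 at 15, 18 and 9. All 3 met at 13 of 23 (56.5%), 15 of 31 (48.4%) and 9 of 10 (90%, 55.5 to 99.8). Only Hist2h4, the H4 gene of the chromosome 3 cluster, lacked the mark there, with KMT9alpha and KMT9beta scores of 1673 and 79.3. The 10 chromosome 3 genes rest on 5 KMT9alpha, 6 KMT9beta and 6 H4K12me1 peaks, and their intervals overlap those of chromosome 13.

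Outside chromosomes 13 and 3, Hist4h4 (chr6:136801553-136804415) had all 3 libraries, with scores of 3100, 217 and 151, the highest H4K12me1 score of any H4 gene. Its window had 2.97% of stretches elsewhere. Hist3h2a (chr11:58954685-58956830) had KMT9alpha at 2697, KMT9beta at 163 and H4K12me1 at 65.6. Its neighbour Trim17, a tripartite motif gene, starts beside it and had the same KMT9alpha and KMT9beta scores. Hist3h2ba (chr11:58948920-58949533) had KMT9beta at 118 and H4K12me1 at 95.9 and no KMT9alpha.

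**Figure D5:**
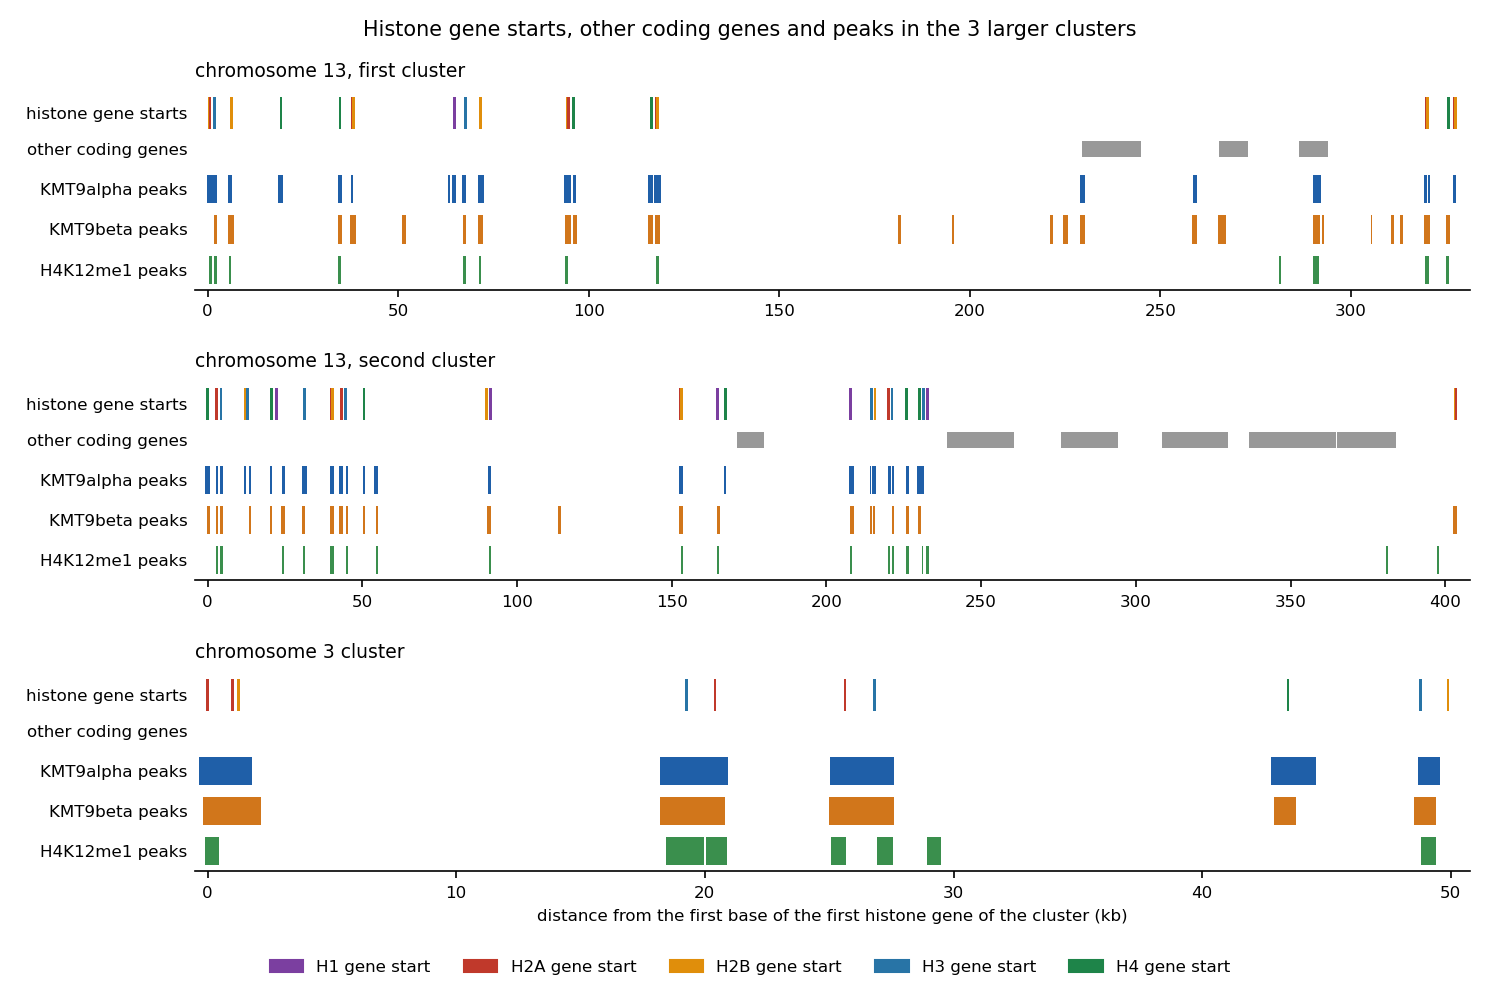
Starts of histone genes (coloured by type), other coding genes and peaks of each library in the 3 larger clusters, by distance in kb from the first histone gene. Peaks line up with histone gene starts, and the wide intervals without histone genes hold few KMT9alpha peaks and a series of KMT9beta peaks in the first chromosome 13 cluster.

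Peaks inside the clusters that touch no histone promoter were few. There were 6 for KMT9alpha, 16 for KMT9beta and 7 for H4K12me1, of which 4, 13 and 6 touched no other coding promoter either. In each library 2 of these were the coding exon peaks of Hist1h1d and Hist1h2be described above. Over the first chromosome 13 cluster KMT9beta had 30.5 such peaks outside promoters per Mb, against 18.3 on chromosome 13 and 26.9 in the genome. In the second it had 7.43. KMT9alpha had 6.1 and 4.95, against 2.99 on the chromosome and 5.24 in the genome. H4K12me1 had 3.05 and 9.91, against 11.2 and 17.8. Each of these densities inside a cluster rests on few peaks.

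Most of the KMT9beta peaks between genes lay on transfer RNA genes, which RNA polymerase III transcribes and which are known to crowd around this histone cluster. This was looked for after the positions had been seen. Of the 13 KMT9beta peaks, 8 overlapped a RefSeq tRNA gene, 7 of them with neither other library. In the genome 0.143% of 73381 KMT9beta peaks outside promoters did so. The peaks lay on genes for isoleucine, aspartate, serine, methionine, arginine and valine tRNAs. The highest, at chr13:22028572-22029470 on an isoleucine tRNA gene, scored 239. The methionine tRNA peak (180) was joined by a KMT9alpha peak of score 2307, and no H4K12me1 peak lay on any.

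Read per tRNA gene, the cluster did not stand above the genome. KMT9beta was at 9 of its 31 tRNA genes (29.0%, 14.2 to 48.0), against 195 of 403 tRNA genes in all (48.4%). KMT9alpha was at 1 (3.23%), against 24.3%, and H4K12me1 was at 0 of 31 (exact interval up to 11.2%), against 13.4%. Of 46 tRNA genes between the 2 chromosome 13 clusters 12 had KMT9beta (26.1%).

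The other coding genes within the clusters had fewer peaks than the histone genes. KMT9alpha was at 3 of 10 (30%, 6.67 to 65.3), KMT9beta at 4 and H4K12me1 at 2, and 6 had none. Of all protein-coding genes 54.2%, 65.1% and 44.9% had these peaks, and 29.6% had none. The 6 were Hfe, which regulates iron uptake, the transporter genes Slc17a1, Slc17a2, Slc17a3 and Slc17a4, and Trim38. Prss16, a serine protease gene of the thymus, had all 3, with scores of 1481, 198 and 264. Zfp184 had KMT9alpha and KMT9beta, and Pom121l2 had KMT9beta. Trim17 had all 3, with the KMT9alpha and KMT9beta scores of Hist3h2a, beside which it starts. The 6 genes with none are in the second lowest CpG class, as Prss16 is. In that class 47.5% of other protein-coding genes had none of the 3, and KMT9alpha was at 23.1%.

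Histone genes of the replication-independent kind, which are not confined to S phase and mostly have ordinary messenger RNAs, had peaks too. Of 11, KMT9alpha was at 9 (81.8%, 48.2 to 97.7), KMT9beta at 11, H4K12me1 at 8 (72.7%, 39.0 to 94.0) and all 3 at 6, against 54.2%, 65.1%, 44.9% and 35.5% of all protein-coding genes. All but H2afy and H3f3b are in the highest CpG class or the next. Other genes there had KMT9alpha at 92.2% and 84.7% and KMT9beta at 96.3% and 91.1%. They had H4K12me1 at 72.8% and 62.5% and all 3 at 68.4% and 54.9%. H1f0, a linker histone of resting cells, scored 3100, 464 and 66.8, and H2afj, an H2A variant, scored 3100, 94.0 and 129.58. H3f3a, for the variant H3.3, scored 3100, 389.61 and 414, and H2afy, for macroH2A, scored 3100, 294 and 113. H2afx, whose transcript ends in a stem-loop as well, scored 3100, 299 and 58.4. H2afz, for H2A.Z, and Cenpa, the centromeric H3, had both KMT9 subunits and no H4K12me1. The germ line genes H1foo, H1fnt and Hils1 had no KMT9alpha. H1foo had KMT9beta (115) and H4K12me1 (70.0), H1fnt had KMT9beta (69.7), and Hils1 had none.

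Genes for the transcription and processing of histone messenger RNA had KMT9alpha and KMT9beta at all 22 (84.6 to 100%). H4K12me1 was at 13 (59.1%, 36.4 to 79.3). The shares of all protein-coding genes were 54.2%, 65.1% and 44.9%. Most of the 22 are in the highest CpG class or the next. Other genes there had KMT9alpha at 92.2% and 84.7%, KMT9beta at 96.3% and 91.1%, and H4K12me1 at 72.8% and 62.5%. Cdk2, the kinase that activates NPAT, scored 3100, 199 and 66.0, and Eri1, an exonuclease of histone transcripts, scored 3100, 274 and 64.5. Npat scored 3100, 293 and 178, and Pou2f1, which binds the octamer, scored 3100, 444 and 203. Slbp, which encodes the stem-loop binding protein, scored 1715, 325 and 140. Hinfp, which binds H4 promoters, and Casp8ap2, a partner of NPAT known as FLASH, had both KMT9 subunits and no H4K12me1. Among 15 histone chaperone genes KMT9alpha was at 15, KMT9beta at 14 and H4K12me1 at 7 (46.7%, 21.3 to 73.4). The shares of all protein-coding genes were again 54.2%, 65.1% and 44.9%. All chaperone genes but Mcm2 are in the highest CpG class or the next. Other genes there had KMT9alpha at 92.2% and 84.7%, KMT9beta at 96.3% and 91.1%, and H4K12me1 at 72.8% and 62.5%. Hat1, an acetyltransferase of new histone H4, scored 3100, 128 and 85.2, and Hira, a chaperone of H3.3, scored 3100, 530.41 and 119.72. Asf1a, Asf1b and Chaf1a, which hand new H3 and H4 to replicating DNA, had no H4K12me1. Chaf1b (72.95), Nasp (149) and Rbbp4 (102) of the same list had it, so the chaperone genes divided on the mark.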

How the data were processed

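ChIP-seq libraries for KMT9alpha, KMT9beta and H4K12me1 came from 1 organoid clone. Per the labels' protocols reads were mapped to mm10 with STAR, whereas the submitters' processing notes name Bowtie2, and the sources used here give no versions. The deposited lists give each peak's position and a score assigned by the authors, and per the peak names they were made with MACS. What the score means, which threshold and control were set and how reads with several matches were treated is unstated in these sources. Each list rests on 1 library and was not pooled.

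Peaks on assembled chromosomes were joined to GENCODE M21 genes on GRCm38.p6 (81, 124 and 120 on unplaced sequences were left out). The promoter window reached 1 kb to each side of every start of a protein-coding transcript, and 1 shared base counted. Clusters were runs of members with gaps of at most 500 kb. The CpG ratio is observed over expected CpG in the window, divided into 5 equal classes. Duplication is the share of 50-base stretches of the window that occur elsewhere in the genome on either strand. Neither a test across samples nor a p-value was possible with 1 library per antibody. Overlap counting was tested on simulated intervals. The work used scipy 1.17.1, numpy 2.4.6, pandas 2.3.3 and matplotlib 3.10.9 under Python 3.11.15.

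The members and lists were chosen with earlier results of these data known. Named in full were, per type, the gene with all 3 libraries and the highest summed rank of scores, any gene with none, the genes outside chromosome 13, the testis genes, and per other list up to 2 genes with none and up to 2 with the highest KMT9alpha scores among those with all 3 (ties by symbol). Other genes were named for their known roles after their values had been seen. The alternatives changed the window, the starts, the overlap rule, the score minimum, the list length, the cluster gap and the duplicated genes.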

Additional observations from a re-analysis of the deposited data

How the results depend on the processing

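Of 564 values recomputed under 12 alternatives, 506 moved by less than their 95% interval, or for counts of peaks by less than 1.5 times, and 58 moved by more. The H4K12me1 share ran from 30.8 to 53.8% at H4 genes and from 75 to 90% at H3 genes, and neither moved beyond its interval. Over H2A, H2B and H3 genes joined it was 75% and ran from 43.8 to 83.3%. The lowest value came from lists of equal length, beside 38.5% at H4 genes, and the next, 54.2%, from peaks at or above the median score. With 1 library per antibody nothing could be left out in turn, and the depth is unknown. No paired analysis was possible because each antibody has 1 library and no conditions were compared.

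Among genes with at most 10% of stretches elsewhere KMT9alpha was at 66.7% and all 3 at 38.9%. H2A genes had KMT9alpha at 50%, KMT9beta at 100% and H4K12me1 at 50%, H2B genes had KMT9alpha at 50% and KMT9beta at 100%, and H4 genes had KMT9alpha at 100%. The first chromosome 13 cluster kept 1 gene, with KMT9alpha at 100%, KMT9beta at 0%, H4K12me1 at 0% and all 3 at 0%. The second had KMT9alpha at 58.3%, and chromosome 3 had H4K12me1 at 50% and all 3 at 50%. No H3 gene was left, so H3 has no value there. These subsets hold few genes.

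A window of 2 kb gave KMT9beta at 95.5% and all 3 at 73.1% (38.2% of all genes). H2A and H2B genes had KMT9beta at 100% each and H4 genes KMT9alpha at 100%. The first chromosome 13 cluster had KMT9alpha at 100% and all 3 at 82.6%, the second had KMT9beta at 96.8%, and germ line histones had KMT9beta at 100%. Peaks at or above the median score gave H4K12me1 at 50.7% and all 3 at 44.8%, against 30.9 and 23.1% of all genes. H2A genes had H4K12me1 at 44.4% and all 3 at 38.9%, the first chromosome 13 cluster had H4K12me1 at 39.1%, germ line histones had H4K12me1 at 0%, and 3 H4K12me1 peaks lay between genes.

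Lists of equal length gave KMT9beta at 71.6%, H4K12me1 at 43.3% and all 3 at 34.3%, against 48, 28.9 and 22.2% of all genes. H2A genes had H4K12me1 at 33.3% and all 3 at 27.8%, H2B genes had H4K12me1 at 33.3% and all 3 at 27.8%, and H4 genes had KMT9beta at 53.8%. The first chromosome 13 cluster had H4K12me1 at 39.1% and all 3 at 30.4%, the second had KMT9beta at 67.7%, and chromosome 3 had H4K12me1 at 30% and all 3 at 30%. Germ line histones had KMT9beta at 0% and H4K12me1 at 0%, and 9 KMT9beta and 2 H4K12me1 peaks lay between genes. Fewer peaks entered by construction.

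RefSeq starts, added after seeing the data together with the first coding base as start, gave H4K12me1 and all 3 at 100% of the 8 matched chromosome 3 genes. Windows of 250 bp and 500 bp, the 5′ end of the gene alone, the peak midpoint and the central 200 bp each left germ line histones with H4K12me1 at 0%. Clusters split at gaps of 100 kb held 3 KMT9alpha, 4 KMT9beta and 3 H4K12me1 peaks between genes, since the wide gaps of chromosome 13 then fall outside.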
